A study of Mus musculus with 30 samples.

Results

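The Zbtb16 locus was taken as every accessible region of the deposited count table that overlapped the RefSeq body of Zbtb16 (gene ID 235320; GRCm38, chromosome 9, start 48651797, end 48836225) or lay within 10 kb of either end. The rule found 70 of 257149 regions, and all 70 were among the 257143 regions tested. They are numbered here from peak 1, at the lowest coordinate, to peak 70, at the highest. The gene was chosen by its measured change in accessibility after acute restraint, so the acute values below, with their calls and p-values, describe the contrast that chose it and are no independent test.

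Zbtb16 encodes PLZF, a transcription factor with a BTB domain and a row of zinc fingers. PLZF binds DNA and recruits corepressors such as NCOR1 and histone deacetylases, and it is known for its part in innate-like T cells and in spermatogonial stem cells. Its transcript is known to rise in several cell types exposed to glucocorticoids, the hormones that a stressed mouse releases. The gene table used here gives no strand. As background, mouse Zbtb16 is read from its higher-coordinate end, and distances below run from that end into the gene.

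The assay was ATAC-seq, which uses a transposase to place sequencing adapters in accessible DNA. Nuclei came from the ventral hippocampus, and each of 30 mice gave 1 library. Handled mice were lifted gently by the tail, and chronically restrained mice spent time in a ventilated tube on each of 10 days. All mice were then housed singly for 24 h and were sampled as home cage animals with no acute restraint (0 min) or 45 min after one began. The groups were 8 handled mice at 0 min (4 females, 4 males), 7 handled mice at 45 min (3 females, 4 males), 8 chronically restrained mice at 0 min (4 females, 4 males) and 7 chronically restrained mice at 45 min (4 females, 3 males). Strain and age are not given in the sources used here. Whole tissue was used, so more cells with an open locus and a more open locus per cell cannot be told apart.

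Each library held 26104576 to 55294838 counts in regions, of which 16430 to 41108 fell in the Zbtb16 locus. The libraries came from 4 batches: batches 1 to 3 held 2 mice of every group, and batch 4 held 2 mice of each 0 min group and 1 of each 45 min group. All 8 marker genes of excitatory neurons, the main cells of the labelled tissue, held accessible regions (180 in all). The same held for all 8 of inhibitory neurons, all 6 of astrocytes and all 4 of neighbouring brain areas, and for 3 of 4 of choroid plexus. Holding a region therefore does not identify the tissue. Levels are CPM, counts per 1000000 of the TMM-scaled library total, given as mean ± SD over mice. Changes are log2 values from edgeR, with sex and batch in the model, ± SE. A region was called at a Benjamini-Hochberg adjusted p under 0.05 over all 257143 regions.

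The promoter of Gm32280, a predicted protein-coding gene lying within Zbtb16 (start 48670083, end 48674689), was the 1 promoter sequence of the locus in the RefSeq table and is shown for that reason. It lies in peak 13, at chr9:48669833-48670132 on the plus strand (GRCm38.p6).

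Gm32280 promoter: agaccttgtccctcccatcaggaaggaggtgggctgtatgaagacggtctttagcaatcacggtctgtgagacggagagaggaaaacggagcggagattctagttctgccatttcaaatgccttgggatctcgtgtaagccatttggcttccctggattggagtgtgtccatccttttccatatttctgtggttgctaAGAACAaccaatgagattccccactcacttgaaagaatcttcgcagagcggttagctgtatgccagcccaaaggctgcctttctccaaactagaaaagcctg

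The capitals mark AGAACA, the hexamer that the glucocorticoid receptor can bind as a single site, which begins at base 199 of these 300. Motifs were searched on both strands. AGAACA was found in 19.0% of all 32851 promoters of this length, and the full palindromic glucocorticoid response element, which was absent from these 300 bases, in 0.475%. GC content was 49%.

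Zbtb16 was covered by accessible chromatin over most of its length. Its body of 184429 bp held 161343 bp of called regions in 66 peaks, or 87.5%. Among the 2429 protein-coding genes of at least 100 kb it ranked 19 in this share, against a median of 6.94%. The flanks, from 10 to 200 kb outside the gene, were covered over 4.94% on the lower side and 10.0% on the upper side, with 19 regions each. Of the 70 members, 65 lay within the gene, 1 (peak 68) spanned its higher-coordinate end, 2 lay below the gene and 2 above it. Neighbouring members were separated by a median of 189 bp and by at most 1974 bp. They were 235 to 15651 bp wide, with a median of 1719 bp against 561 bp for all regions. Their median mean count was 198 per library against 58.97 for all regions, while their median level per length, 3.09 CPM per kb, was close to the 2.74 of all regions.

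Members differed in level per length less than in width. Peak 40 (start 48730618, end 48746268), the widest at 15651 bp, also had the highest mean level, 112 CPM, and the highest level per length, 7.15 CPM per kb, and held 16.0% of all counts of the locus. The next in level per length were peak 36 at 6.67 CPM per kb, peak 68 over the higher-coordinate end at 6.31, peak 58 at 5.54 and peak 2, just beyond the lower end, at 5.08. At the other end of the range stood peak 27 with 2.12 CPM per kb and peak 5 with 2.17.

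**Figure D1:**
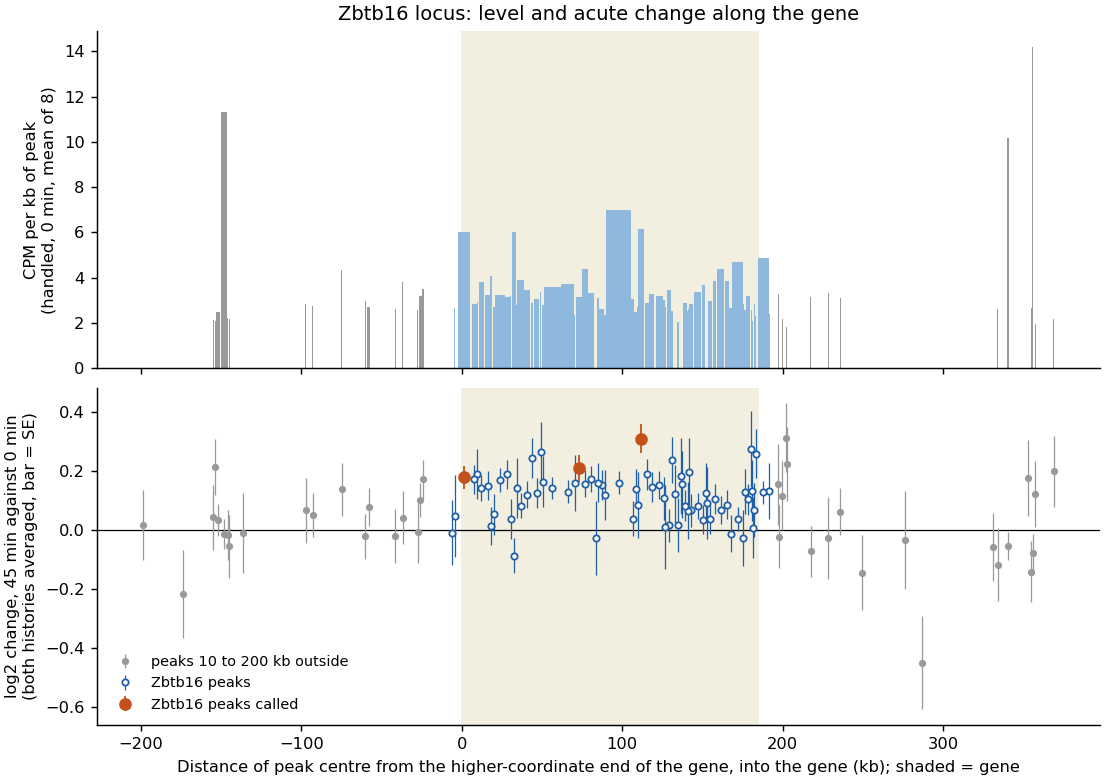
The upper panel plots each peak's level in handled mice at 0 min (CPM per kb of peak, mean of 8 mice, drawn to the peak's width) and the lower panel its log2 change at 45 min against 0 min averaged over both histories (bars are SE), against the distance in kb from the higher-coordinate end of Zbtb16, with the gene shaded. Blue marks are the 70 members, orange marks the 3 that were called, and grey marks the 38 flanking regions.

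Accessibility of Zbtb16 was higher 45 min after acute restraint in both histories. The counts of the 70 peaks summed to 680 ± 23.3 CPM (SD, n = 8) in handled mice at 0 min, with a lowest, median and highest value of 650, 674 and 726. In handled mice at 45 min the sum was 744 ± 26.3 CPM (SD, n = 7), with 698, 750 and 772. Of the 7 handled mice at 45 min, 6 lay above all 8 at 0 min and 1, at 698, lay within their range.

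In chronically restrained mice the sum was 667 ± 50.4 CPM (SD, n = 8) at 0 min, with a lowest, median and highest value of 613, 663 and 779. At 45 min it was 731 ± 13.4 CPM (SD, n = 7), with 714, 735 and 750. The group means thus differed by 9.36% in handled and by 9.60% in chronically restrained mice. The value of 779 belonged to animal 3, a male of batch 1, and lay above all 7 chronically restrained mice at 45 min, while the other 7 mice of its group ended at 674, below all 7. Without animal 3 the group at 0 min stood at 651 ± 23.7 CPM (SD, n = 7).

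Animal 3 was the highest of its group at 35 of the 70 members. At the 185 regions outside the locus that were called as more accessible at 45 min, its mean log2 CPM was 2.35. The other 7 mice of its group had 1.90 to 2.16, and the chronically restrained mice at 45 min 2.35 to 2.53. These regions were called with these same mice, so the gap between the times is built in and nothing is read from it. Animal 45, a handled female at 0 min of batch 4, had the highest locus sum of its own group, 726 CPM. This place rests on its TMM scaling factor, 0.875 against 0.970 to 1.03 in the other libraries. The same factor raises its CPM at every single peak relative to the other libraries. Unscaled, its locus held 0.0635% of all counts, the lowest share of its group, and all 7 handled mice at 45 min (from 0.0716%) lay above all 8 at 0 min (up to 0.0705%). Without it the handled group at 0 min stood at 674 ± 15.5 CPM (SD, n = 7). At the same 185 regions animal 45 had a mean log2 CPM of 2.27. The other handled mice at 0 min had 1.96 to 2.14, and those at 45 min 2.39 to 2.51.

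The flanks differed less. The 19 regions below the gene summed in the handled groups to 48.7 ± 8.45 CPM (SD, n = 8) at 0 min and to 47.3 ± 3.98 CPM (SD, n = 7) at 45 min. The 19 regions above it summed to 82.6 ± 9.52 CPM (SD, n = 8) and 83.4 ± 2.60 CPM (SD, n = 7). The group means differed by -2.95% below the gene and by 0.852% above it, less than the spread within either group. Animal 45 moved both values: without it they were 3.06% and 4.52%, against 10.4% for the locus, and the upper difference of 3.61 CPM was then larger than the SD of 2.60 at 45 min.

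**Figure D2:**
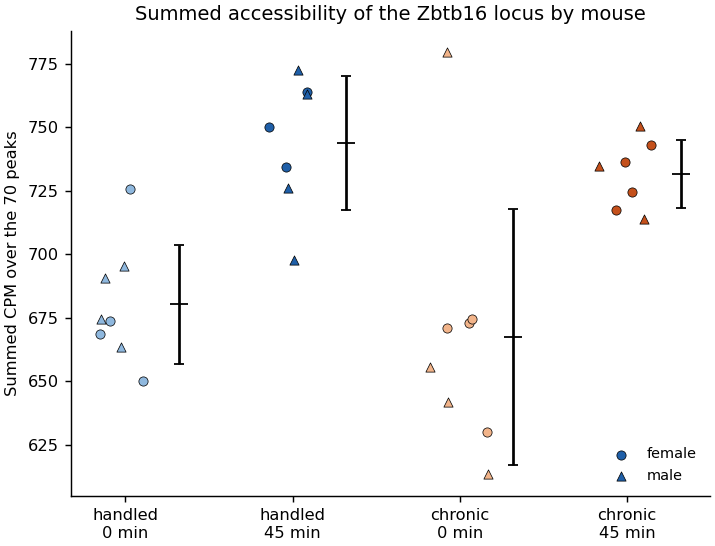
Summed level of the 70 Zbtb16 peaks (CPM) in each of the 30 mice by group, with circles for females and triangles for males; the horizontal mark and bar beside each group are the mean and SD. The chronically restrained mice at 0 min sit between 613 and 674 but for 1 male at 779, and those at 45 min between 714 and 750.

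By peak, 3 members were called as more accessible at 45 min when both histories were averaged, and none as less accessible. Of all tested regions 0.0731% were called as more accessible and 0.116% in either direction. The median log2 change of the members was 0.13, against 0.00 for all regions, and 65 of 70 were positive, against 49% of all regions. An unadjusted p under 0.05 was reached by 30 members, against 7.17% of all regions. These counts use the contrast by which the gene was chosen, so nothing is read from them. They moved with single mice: 8 members were called without animal 45, 8 without animal 3 and 14 without both. The latter 2 settings were added after the data were seen. Over all regions the number called as more accessible also moved, from 188 to 485 without animal 45. For the 2 settings without animal 3 the number over all regions is not given here. Their counts of members are therefore no result about the locus alone. Without batch 2 or without batch 3, only peak 36 was called.

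Within each history no member was called by edgeR. In handled mice 22 members had an unadjusted p under 0.05 (5.52% of all regions), 61 were positive (47.7%) and the median log2 change was 0.11. Of all regions 0.0109% were called in handled mice, and 0.00972% as more accessible. In chronically restrained mice 21 members had an unadjusted p under 0.05 (4.73%), 64 were positive (50.3%) and the median was 0.12. Of all regions 0.00272% were called there, all of them as more accessible. DESeq2 called 1 member in handled and 0 in chronically restrained mice, and 7 for both histories averaged, but it gave no adjusted p for 3, 24 and 10 members. Over all regions DESeq2 called 57, 24 and 434 in the same order, in either direction. The change was positive in both histories at 58 members.

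The size of the change varied along the gene. The median log2 change was 0.08 over the 22 peaks of the lower-coordinate part of the gene (peaks 3 to 24), 0.15 over the 22 of the middle part (peaks 25 to 46) and 0.15 over the 22 of the upper part (peaks 47 to 68). Over the flanks it was -0.03 below the gene, with 8 of 19 regions positive, and 0.03 above it, with 11 of 19. By width the median was 0.13 over the 44 members wider than 1 kb and 0.13 over the 26 others, with median SEs of 0.050 and 0.10. All 3 called members were among the wider ones.

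Peak 36 (start 48722347, end 48726255), within the gene and 112 kb from its higher-coordinate end, had the largest change of the members. Its lowest, median and highest levels were 21.1, 24.1 and 28.0 CPM in handled mice at 0 min and 26.8, 29.1 and 34.3 CPM at 45 min. In chronically restrained mice they were 18.6, 22.0 and 30.9 CPM at 0 min and 26.6, 27.5 and 31.7 CPM at 45 min. Of the handled mice at 45 min, 5 of 7 lay above all 8 at 0 min, and of the chronically restrained ones 2 of 7 did, where animal 3 set the upper end at 0 min. All 14 mice at 45 min lay above the median of their own history at 0 min. The means were 24.1 ± 2.05 CPM (SD, n = 8) and 29.5 ± 2.57 CPM (SD, n = 7) in handled mice, and 22.96 ± 3.73 CPM (SD, n = 8) and 28.5 ± 2.10 CPM (SD, n = 7) in chronically restrained mice. The log2 change was 0.31 ± 0.048 averaged, 0.30 ± 0.067 in handled and 0.32 ± 0.067 in chronically restrained mice. It was 0.31 in females alone and 0.31 in males alone, and lay between 0.21 and 0.41 in the 4 batches taken alone.

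Peak 47 (start 48761329, end 48765216), within the gene and 73.0 kb from that end, was the 1 called member with no overlap between the handled groups. All 7 handled mice at 45 min (14.3 to 16.8 CPM, median 14.8) lay above all 8 at 0 min (11.6 to 14.1 CPM, median 12.01). After chronic restraint the levels ran from 10.99 to 14.7 CPM at 0 min, median 12.4, and from 12.9 to 14.6 CPM at 45 min, median 14.1, so those groups overlapped. The means were 12.3 ± 0.834 CPM (SD, n = 8) and 15.0 ± 0.830 CPM (SD, n = 7) in handled mice, and 12.9 ± 1.28 CPM (SD, n = 8) and 13.95 ± 0.629 CPM (SD, n = 7) in chronically restrained mice. The log2 change was 0.21 ± 0.045 averaged, 0.30 ± 0.063 in handled and 0.12 ± 0.063 in chronically restrained mice, and 0.18 to 0.25 in the 4 batches taken alone.

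Peak 68 (start 48831018, end 48838613) spans the higher-coordinate end of the gene. Its levels ran from 41.7 to 54.4 CPM in handled mice at 0 min, median 45.1, and from 47.4 to 54.5 CPM at 45 min, median 53.3. Chronically restrained mice ran from 39.8 to 52.4 CPM at 0 min, median 43.5, and from 45.9 to 53.9 CPM at 45 min, median 49.8. The groups overlapped in both histories, with 1 of 7 mice at 45 min above all 8 at 0 min in each, although all 14 lay above the median of their own history at 0 min. Animal 45 and animal 3 were the highest at 0 min, and above all the others lay 6 of 7 handled and 4 of 7 chronically restrained mice at 45 min. The means were 45.7 ± 4.21 CPM (SD, n = 8) and 52.4 ± 2.41 CPM (SD, n = 7) in handled mice, and 44.8 ± 4.39 CPM (SD, n = 8) and 49.7 ± 2.65 CPM (SD, n = 7) in chronically restrained mice. The log2 change was 0.18 ± 0.039 averaged, 0.21 ± 0.055 in handled and 0.15 ± 0.055 in chronically restrained mice.

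Peak 40, the widest, was not called. Its levels ran from 98.1 to 131 CPM in handled mice at 0 min and from 107 to 133 CPM at 45 min, with medians of 107 and 120. Chronically restrained mice ran from 90.2 to 131 CPM and from 109 to 129 CPM, with medians of 99.4 and 117. The log2 change was 0.16 ± 0.039. The highest values at 0 min were those of animal 45 and animal 3.

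**Figure D3:**
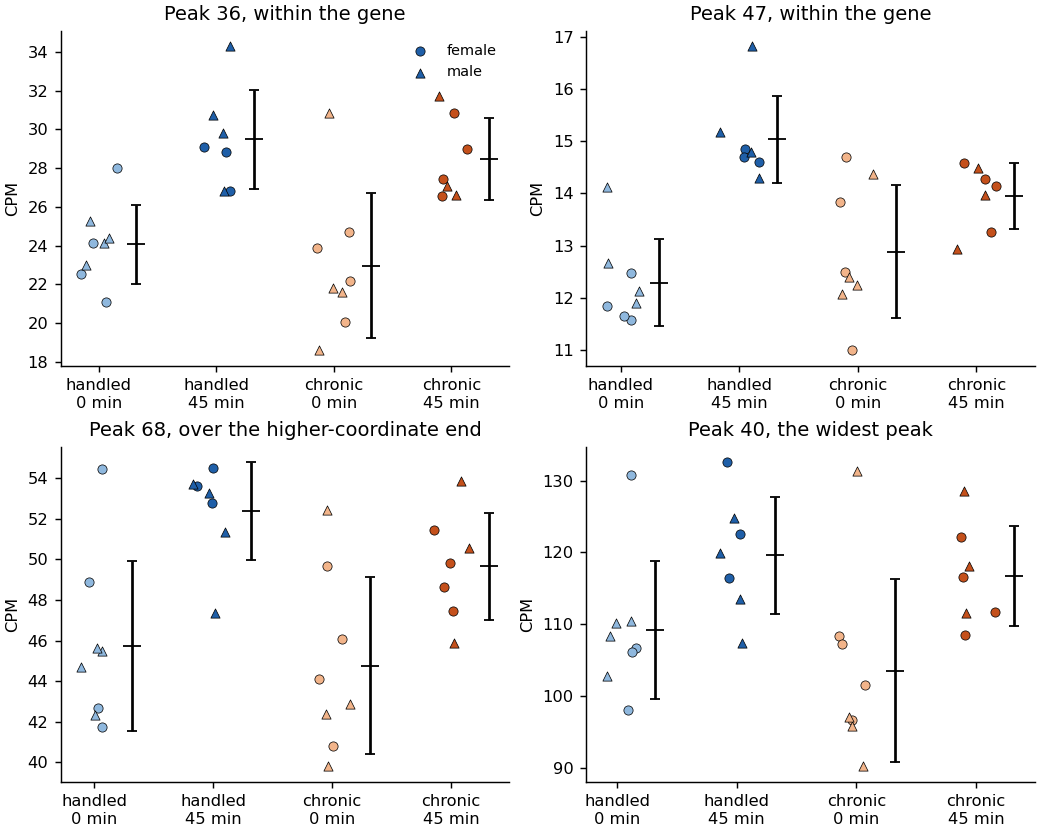
Level (CPM) of peaks 36, 47, 68 and 40 in each of the 30 mice by group, with circles for females and triangles for males; the horizontal mark and bar beside each group are the mean and SD, and the vertical axes do not start at 0. All 7 handled mice at 45 min lie above all 8 at 0 min at peak 47, while the groups overlap at the other 3 peaks and in chronically restrained mice.

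Members whose levels did not overlap between handled mice at 0 min and 45 min were peaks 47 and 61, against 0.0288% of all regions. Peak 61 (start 48809162, end 48815485) stood at 20.4 ± 1.06 CPM (SD, n = 8) and 22.9 ± 0.770 CPM (SD, n = 7) in handled mice. Between the chronically restrained groups no member was free of overlap, against 0.0245% of all regions. These counts rest on single mice: without animal 3, peaks 36, 40, 50 and 54 did not overlap in chronically restrained mice (0.0626% of all regions), and without animal 45 peak 36 joined peaks 47 and 61 in handled mice (0.0782%). At peak 36 the other 7 chronically restrained mice at 0 min reached 24.7 CPM, below the lowest at 45 min, 26.6 CPM.

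A negative acute change was found at 5 members, all smaller than 0.10 on the log2 scale. Peak 58 (start 48802460, end 48804814) had the most negative, -0.09 ± 0.059, and was negative in all 4 batches taken alone, from -0.15 to -0.0048, the 1 member for which this held. Its levels were 14.2 ± 3.19 CPM (SD, n = 8) in handled mice at 0 min, 13.1 ± 1.45 CPM (SD, n = 7) at 45 min, and 12.8 ± 0.845 CPM (SD, n = 8) and 12.01 ± 1.32 CPM (SD, n = 7) in chronically restrained mice. Animal 45 had 21.5 CPM there, against 10.5 to 14.3 in the other handled mice at 0 min. The other 4 were peak 10 (-0.03 ± 0.095), peak 44 (-0.03 ± 0.12), peak 12 (-0.01 ± 0.062) and peak 70 (-0.01 ± 0.11), with changes smaller than their SE.

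Taken in 20 kb stretches from the higher-coordinate end, by the centre of each peak, every stretch within the gene was higher at 45 min in both histories. Peaks 62 to 68, in the first 20 kb, summed in the handled groups to 88.9 ± 4.38 CPM (SD, n = 8) at 0 min and 99.96 ± 5.02 CPM (SD, n = 7) at 45 min, and to 87.8 ± 6.84 CPM (SD, n = 8) and 96.9 ± 4.44 CPM (SD, n = 7) in chronically restrained mice. All 7 were positive, from 0.01 at peak 63 to 0.19 at peak 66, and 5 of them lay between 0.14 and 0.20.

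Peaks 56 to 61, from 20 to 40 kb, differed as a sum by 5.73% in handled and 6.75% in chronically restrained mice, and they hold the negative peak 58. On either side of it peak 57 had a log2 change of 0.14 ± 0.10 and peak 59 of 0.04 ± 0.069. Peaks 50 to 55, from 40 to 60 kb, were all positive, from 0.12 at peak 55 to 0.26 at peak 52, and their sum differed by 9.17% and 11.7%. The broad peak 50 (10407 bp) carried 38.7 CPM of it and had a log2 change of 0.14 ± 0.036.

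Peaks 46 to 49, from 60 to 80 kb, hold peak 47. In handled mice their sum was 58.1 ± 2.20 CPM (SD, n = 8) at 0 min and 65.7 ± 2.06 CPM (SD, n = 7) at 45 min, with all 7 mice above all 8. After chronic restraint it was 57.7 ± 5.61 CPM (SD, n = 8) and 63.0 ± 2.38 CPM (SD, n = 7), with none of 7 above animal 3, the highest mouse at 0 min, and 5 of 7 above the next, at 61.03 CPM. Peaks 40 to 45, from 80 to 100 kb, hold the widest peak, and their sum differed by 9.97% and 12.6%.

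Peaks 34 to 39, from 100 to 120 kb, hold peak 36 and had the largest difference of any stretch. Their sum was 52.2 ± 2.01 CPM (SD, n = 8) at 0 min and 60.9 ± 2.81 CPM (SD, n = 7) at 45 min in handled mice, or 16.8% higher, again with all 7 above all 8. After chronic restraint it was 50.98 ± 5.89 CPM (SD, n = 8) and 58.95 ± 3.17 CPM (SD, n = 7), or 15.6% higher. Beside peak 36, peak 35 had a log2 change of 0.19 ± 0.050 and peak 34 of 0.15 ± 0.046.

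Within the gene the differences were smallest from 140 to 180 kb. Peaks 24 to 33, from 120 to 140 kb, differed as a sum by 7.85% in handled and 7.82% in chronically restrained mice, peaks 15 to 23, from 140 to 160 kb, by 4.62% and 5.57%, and peaks 8 to 14, from 160 to 180 kb, by 4.53% and 3.93%. The last of these holds peak 11, a 6248 bp region of 29.3 CPM whose log2 change was 0.04 ± 0.040, and peak 13 with the Gm32280 promoter, 0.09 ± 0.048. Peaks 1 to 7, around the lower-coordinate end, differed by 9.13% and 10.2%. Of these, peak 2 (start 48644928, end 48651655), beyond that end, had 34.2 CPM and a log2 change of 0.13 ± 0.038.

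At the borders of the window the changes were of mixed size. Peak 1 (start 48644081, end 48644784), the outermost on the lower side, had a log2 change of 0.13 ± 0.096, and the nearest region outside (start 48638995, end 48639190) had 0.16 ± 0.14. Peak 70 (start 48841978, end 48842434), the outermost on the upper side, had -0.01 ± 0.11, and the nearest region outside (start 48859885, end 48860950) had 0.17 ± 0.066. Peak 69 (start 48840588, end 48840828), the first beyond the higher-coordinate end, had 0.05 ± 0.14 at 0.637 CPM.

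The median change was positive in each batch and each sex. These are parts of the same mice by which the gene was chosen, so they are no replication. The median log2 change of the 70 members was 0.08, 0.13, 0.16 and 0.12 in batches 1 to 4 taken alone, with 54, 62, 58 and 55 members positive. It was 0.15 in females alone and 0.09 in males alone. The change was positive in all 4 batches at 37 members, in 3 at 19, in 2 at 11, in 1 at 2 and in none at 1, peak 58.

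**Figure D4:**
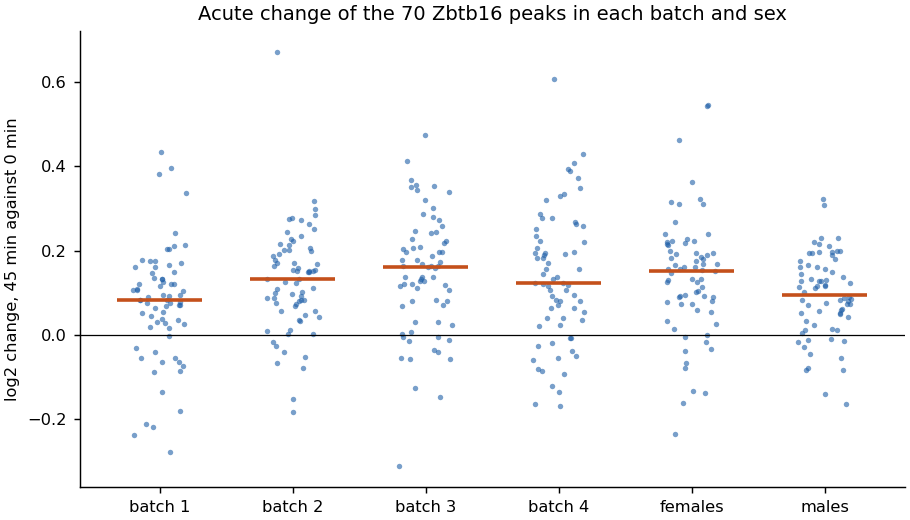
Log2 change at 45 min against 0 min, both histories averaged, of each of the 70 Zbtb16 peaks in each batch and each sex taken alone; each point is a peak and the bar is the median. The medians lie between 0.08 (batch 1) and 0.16 (batch 3), and points below 0 occur in every panel.

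The following comparisons were not used to choose the gene. The first asks whether a history of restraint shifted the locus. No member was called for chronic restraint against handling averaged over both times by edgeR or DESeq2, and edgeR called 0.0% of all regions. An unadjusted p under 0.05 was reached by 2 members, against 5.44% of all regions, and 27 of 70 changes were positive, against 48%. The smallest p was that of peak 58, with a log2 change of -0.14 ± 0.058 (edgeR quasi-likelihood test, adjusted p = 0.912). The other was peak 1, at 0.22 ± 0.095 (edgeR, adjusted p = 0.912). Without animal 3, 6 members had an unadjusted p under 0.05 and still none was called. Without animal 45 this number was 1, again with none called, and the changes of the members ran from -0.16 to 0.15. At peak 58 animal 45 had 21.5 CPM, against 10.5 to 14.3 in the other handled mice at 0 min. At peak 1 it had 0.842 CPM, against 1.22 to 2.26 in those mice.

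By position, among the lower-coordinate peaks 3 to 24, 16 of 22 were higher after chronic restraint, among the middle peaks 25 to 46, 5 of 22, and among the upper peaks 47 to 68, 4 of 22. The median log2 differences were 0.04, -0.02 and -0.04, and none of the peaks was called. At 0 min alone 15, 7 and 8 of 22 were higher, and at 45 min alone 14, 11 and 6. The summed level of the locus was 1.90% lower at 0 min and 1.68% lower at 45 min after chronic restraint than after handling, differences smaller than the SD of each group. Without animal 3 the change at 0 min was -4.25%, or -28.9 CPM, which was larger than the SDs of 23.3 and 23.7 CPM. Without animal 45, the highest handled mouse at 0 min, it was -0.953%. Without both animals it was -3.33%, or -22.4 CPM, against SDs of 15.5 CPM in handled and 23.7 CPM in chronically restrained mice.

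At 0 min alone no member was called for chronic restraint (0.0% of all regions), and none had an unadjusted p under 0.05 by edgeR or DESeq2, against 4.59% of all regions by edgeR. Without animal 3 this count was 4, the median log2 difference went from -0.01 to -0.05, the positive members from 31 to 19, and none was called. Without animal 45 the count was 2, the median -0.01 and the positive members 32, and none was called. At 45 min alone none was called either (0.0% of all regions), and 2 had an unadjusted p under 0.05 by both tools, against 3.78%. The smallest p at 45 min was that of peak 1, which stood at 1.73 ± 0.175 CPM (SD, n = 7) in handled and 2.12 ± 0.203 CPM (SD, n = 7) in chronically restrained mice. Its log2 difference was 0.29 ± 0.14 (edgeR, adjusted p = 1.00). At 0 min the same peak stood at 1.68 ± 0.448 CPM (SD, n = 8) and 1.84 ± 0.321 CPM (SD, n = 8).

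Whether the acute change itself differed with history was tested as an interaction, the study's question about habituation. No member was called (0.0% of all regions) by edgeR or DESeq2, and 1 had an unadjusted p under 0.05 by each, against 3.03% of all regions. The differences ran from -0.28 to 0.32 with a median of 0.01, and 39 of 70 were positive, against 52.4%. The smallest p was that of peak 47, where the change in chronically restrained mice was smaller than in handled mice by a log2 difference of -0.18 ± 0.089 (edgeR, adjusted p = 1.00). Peak 36 had an interaction of 0.02 ± 0.095, peak 68 of -0.05 ± 0.078 and peak 40 of 0.04 ± 0.078. With a median SE of 0.12 over the members, differences between histories of the size of the acute changes themselves were not detectable at a typical member.

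The sexes were compared next. No member was called between the sexes by edgeR or DESeq2, against 0.035% of all regions, and none had an unadjusted p under 0.05, against 5.37%. The smallest p was that of peak 28 (start 48703090, end 48703482), where the log2 difference of females from males was -0.17 ± 0.098 (edgeR, adjusted p = 0.945). The differences of the 70 members ran from -0.18 to 0.16.

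The acute change was also compared between the sexes. No member was called by edgeR or DESeq2, against 0.000389% of all regions, and 4 had an unadjusted p under 0.05 by each, against 3.72%. The difference of females from males was positive at 44 of 70 members, against 47.9% of all regions. Without animal 3, a male, it was positive at 34, and without batch 1 at 33. Peak 29 (start 48704554, end 48705764) had the smallest p, with a log2 difference of 0.61 ± 0.14 that failed the adjustment (edgeR, unadjusted p = 4.01e-05, adjusted p = 1.00).

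At peak 29 the females at 0 min lay at 2.37 to 3.27 CPM (n = 4) when handled and at 2.56 to 3.42 CPM (n = 4) after chronic restraint. At 45 min they lay at 3.97 to 4.18 CPM (n = 3) and at 3.44 to 4.69 CPM (n = 4), above all females of their own history at 0 min. The males lay at 3.16 to 3.33 CPM (n = 4) and 2.96 to 3.94 CPM (n = 4) at 0 min and at 2.73 to 3.27 CPM (n = 4) and 2.81 to 3.55 CPM (n = 3) at 45 min, with the times overlapping in both histories. At the members called for acute restraint, the difference of the acute change between the sexes was -0.03 ± 0.098 at peak 36, 0.02 ± 0.090 at peak 47 and -0.03 ± 0.078 at peak 68.

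**Figure D5:**
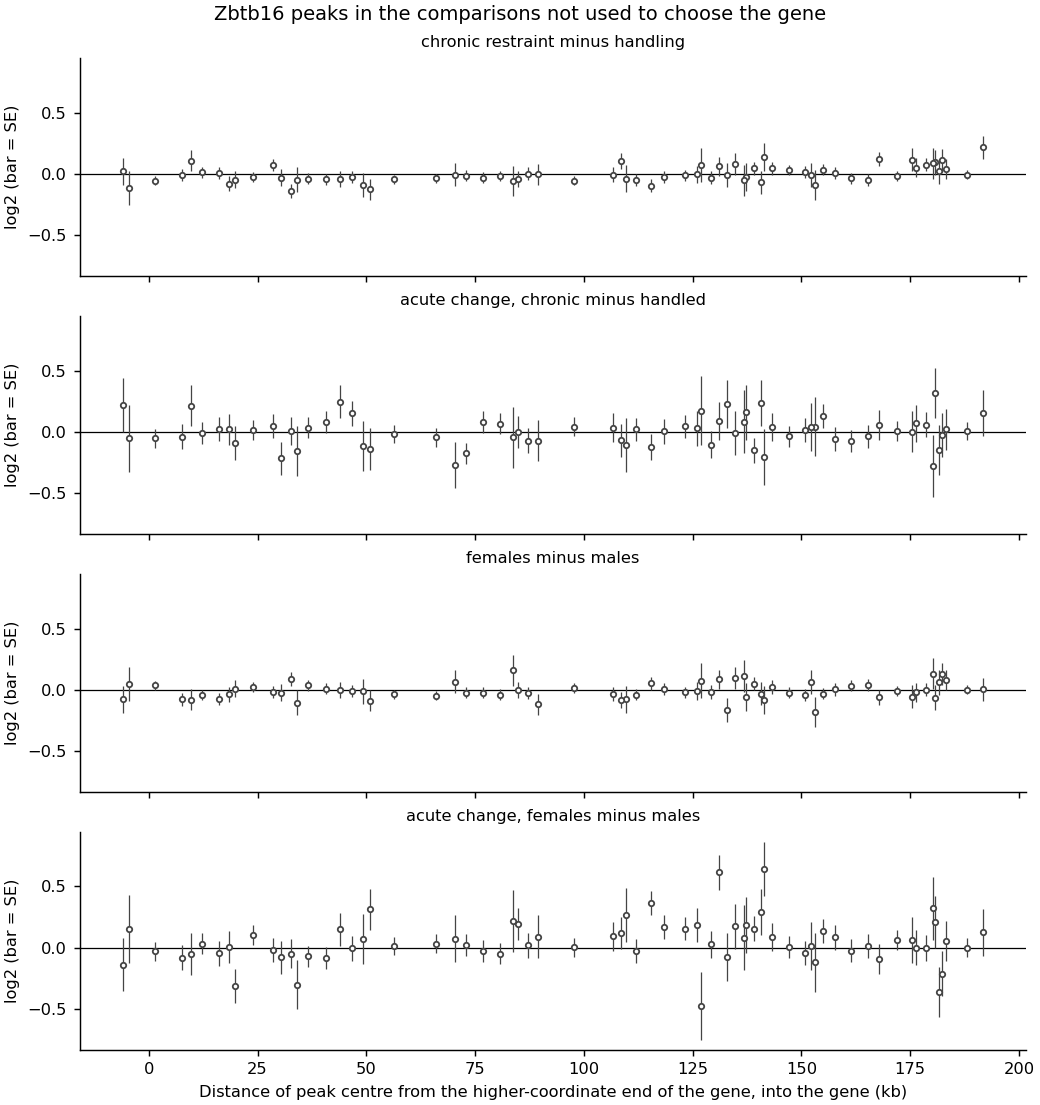
Log2 differences of the 70 Zbtb16 peaks (bars are SE) for chronic restraint against handling, for the acute change in chronically restrained minus handled mice, for females minus males, and for the acute change in females minus males, against the distance in kb from the higher-coordinate end of the gene. No member was called in any of the 4 panels, and the highest points of the lowest panel are peak 22 at 0.64 and peak 29 at 0.61.

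Across the 30 libraries, with sex and batch removed, the members moved together weakly. Over the 44 members with a mean of at least 100 counts, the median Pearson r of the 946 pairs was 0.20, and between members and the 10 flanking regions of that depth it was 0.12. These libraries share their scaling, and the values include the difference between 0 and 45 min. The genes whose summed level was most like that of Zbtb16, among 8622 protein-coding genes with at least 10 regions, were Mobp (r = 0.94), a myelin-associated protein, Elmo2 (0.90), which takes part in engulfment and cell motility, Hdgfl2 (0.88), Mt2 (0.86), a metal-binding metallothionein, and Xirp1 (0.85), an actin-binding protein. The median r over all 8622 genes was 0.24. With the group means also removed the r of these 5 genes lay between 0.77 and 0.88, and these are descriptions over libraries that share group, depth and scaling.

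Mobp is also on the list of oligodendrocyte markers, and 1 of its regions was the only one called for acute restraint among the 95 regions of that list of 6 genes (log2 change 0.24 ± 0.051). In that list 19 of 95 regions had an unadjusted p under 0.05, against 7.17% of all regions, and the median log2 change was 0.01. The list's summed level ran from 546 to 618 CPM in handled mice at 0 min, from 568 to 601 at 45 min, from 535 to 578 in chronically restrained mice at 0 min and from 553 to 594 at 45 min. The part of oligodendrocytes in the Zbtb16 difference was not tested. Among the 544 regions of the other 8 marker lists edgeR called none, 25 had an unadjusted p under 0.05 and DESeq2 called 1, with 195 regions given no adjusted p. Of all regions edgeR called 0.116% for acute restraint.

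Regions at other genes of the pathway were compared too. Among 14 genes whose products bind or work with PLZF, including Ncor1, Hdac3 and Cul3, 0 of 421 regions were called for the acute comparison by edgeR. Of all regions 0.116% were called, a share at which lists of these sizes may hold none, so nothing is read from counts of 0. Of the 421 regions 34 had an unadjusted p under 0.05 (7.17% of all regions did), and the median log2 change was 0.02. DESeq2 called none of them but gave no adjusted p for 123. Among 46 other BTB zinc finger genes and relatives, 0 of 657 were called by either tool (212 had no adjusted p from DESeq2), 34 had an unadjusted p under 0.05, and the median was 0.00. The nearest protein-coding genes outside Zbtb16, Nnmt 44141 bp below, which encodes nicotinamide N-methyltransferase, and Htr3a 62987 bp above, which encodes a serotonin receptor subunit, had no called region among 5 and 3 by edgeR, with 1 and 0 at an unadjusted p under 0.05. DESeq2 called none of the 3 at Htr3a and gave no adjusted p for 4 of the 5 at Nnmt.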

How the data were processed

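Libraries were ATAC-seq of mouse ventral hippocampus, 1 per animal. The authors deposited raw counts, as whole numbers per region, for 1 set of regions shared by all libraries. Trimmomatic, Bowtie2, Picard and Genrich 0.6.1 are named as tools, and GRCm38 as the build, per the submitters' processing notes. How regions were merged, and whether reads, fragments or insertions were counted, is not given in the sources used here, so widths and counts depend on steps that could not be examined. Of its library columns 2 could not be matched to a sample's labels and were left unused.

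Groups, sex and batch came from the labels. edgeR 4.0.16 in R 4.3.3 (TMM scaling, filterByExpr, robust quasi-likelihood F-tests) was fitted to all 30 libraries with group, sex and batch; the sex difference of the acute change came from a model of the 8 cells of group and sex with batch. P-values were adjusted over all 257143 tested regions of each comparison, and they measure the spread between animals. DESeq2 1.42.0, other scalings, left-out animals and batches, single batches and sexes, and other windows were tried as alternatives. The edgeR step was tested on simulated data with acute changes larger than the averaged acute change of any member. That test therefore does not cover changes of the size described here. Genes were placed by RefSeq on GRCm38.p6, whose table gives no exons, so exons, introns and UTRs were not assigned. No genome sequence of this build was used.

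Peaks described in full were those called for acute restraint, at or beside the gene ends and window borders, highest in count or in count per base, lowest in p in another comparison, or negative after acute restraint. Peaks 61, 22, 27, 5 and those named in stretches were chosen after their values were seen. The members and gene lists were chosen with earlier results of these data known. Likeness is Pearson r of log2 CPM after sex and batch were removed.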

Additional observations from a re-analysis of the deposited data

Results flagged for a closer look

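Single mice stood apart from their own group at 3 described peaks and in the summed level of the locus. The gap between the extreme mouse and its nearest neighbour was large against the range of the group (Dixon's criterion) in 6 of 60 sets of mice examined, which covered 14 peaks and the locus sum over 4 groups, and chance alone marks about 1 set in 20.

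In chronically restrained mice at 0 min, animal 3 had a summed level of 779 CPM, with the next mouse at 674, and 131 CPM at peak 40, with the next at 108. In handled mice at 0 min, animal 45 had 131 CPM at peak 40, with the next at 111, and 21.5 CPM at peak 58, with the next at 14.3. Both values of animal 45 are raised by its low TMM scaling factor, 0.875 against 0.970 to 1.03 in the other libraries. At peak 47, animal 20 had 14.1 CPM among the handled mice at 0 min, with the next at 12.7, and animal 59 had 16.8 CPM among those at 45 min, with the next at 15.2. All 6 were the highest value of their group. The part of animals 3 and 45 in the called peaks is given by the counts without them.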

How the results depend on the processing

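The median log2 acute change of the members stayed positive, between 0.08 and 0.16, under every alternative tried. The number of members called as more accessible, 3 for both histories averaged, was 7 with library totals in place of TMM, 7 with DESeq2 (10 members without an adjusted p), 8 without animal 45, 13 with each library's share of counts in its top regions as a covariate, 1 without batch 2, 1 without batch 3, 3 without batch 1, 4 without batch 4 and with group alone, 2 in batch 2 alone and in females alone, and 0 in batches 1, 3 and 4 alone and in males alone. With alternatives added after the data were seen, it was 8 without animal 3 and 14 without animals 3 and 45. In handled mice the count of 0 became 3 with library totals, 1 with DESeq2, 3 without animal 45, 1 without batch 4, 3 with the covariate, 2 without animal 3 and 3 without both animals. After chronic restraint the count of 0 became 1 with library totals, 1 without animal 45, 1 without batch 1, 1 with the covariate, 2 without animal 3 and 3 without both animals. Calls over all regions moved too. For both histories averaged, 188 called as more accessible became 280 with library totals, 251 with DESeq2, 485 without animal 45 and 148 without batch 1. With library totals, with DESeq2 and without animal 45, 25 became 49, 46 and 102 in handled mice. After chronic restraint 7 became 26, 23 and 38. Where no number over all regions is given here, the count of members is not read as a result about the locus alone. Single batches and sexes hold fewer libraries; for the other alternatives the cause was not tested. No member was called in the chronic, interaction, sex or sex by acute comparisons under any alternative run. Peak 36 was called under 15 of 19 alternatives and peaks 47 and 68 under 10 each, all with a positive change. The sex difference of the acute change could not be fitted within single batches. No paired analysis was possible because animal numbers were unique and no group shared replicate numbers with another. The 26 members no wider than 1 kb had a median SE of 0.10, which limits the differences detectable there.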
